A study of Mus musculus with 4 samples.

Results

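Adipokines are proteins that fat cells, or other cells of fat tissue, release into the blood or act on their neighbours with. The 9 adipokine genes described here were taken as a list of names: *Adipoq*, *Lep*, *Retn*, *Retnla*, *Cfd*, *Rbp4*, *Nampt*, *Rarres2* and *Agt*. Each name was matched to the gene column of the deposited table, which holds 30506 loci, and every name was found in 1 row of its own. The RNA came from whole mammary tissue of virgin female mice about 2 months old on a mixed 129SV::FVB/N::C57BL/6 background, with 2 mice of the miR-21+/+ genotype and 2 of the miR-21-/- genotype, in which both copies of the gene for the microRNA miR-21 are missing from the whole mouse, fat cells as well as epithelium. The question was which transcripts of the gland differ when miR-21 is absent.

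The table gives 1 value per genotype, in FPKM, a read level scaled to transcript length and to the size of the library, which combines its 2 mice. No value per mouse was used here, so no difference below has a replicate check, a standard deviation or a p-value. Since length is accounted for, levels can be set side by side between genes. A log2 ratio is always miR-21-/- over miR-21+/+, taken from the deposited values with no pseudocount. For scale, each ratio is set beside those of the 9714 named loci above 5 FPKM in at least one genotype, the minimum used by the study, which all 9 adipokines passed. Among these loci the median log2 ratio was -0.03 and the middle 90% lay between -0.54 and 0.50. The locus listed as *Mir21* and *Vmp1* was at 42.5 FPKM in miR-21+/+ and 68.2 FPKM in miR-21-/- tissue. The row merges both names and cannot tell the long host transcript from a transcript of *Mir21* itself, so this value does not check the genotype labels.

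The virgin mammary gland is a sparse tree of epithelial ducts embedded in a pad of white fat, and most of its volume is adipocytes. Leptin reports the size of fat stores to the brain, while adiponectin raises the response of liver and muscle to insulin. Fat tissue also releases proteins with older names from other systems, such as a complement protease, a retinol carrier and the precursor of angiotensin. In a bulk tissue sample, fewer cells of a type and less RNA per cell of that type cannot be told apart.

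Adipocyte RNA was abundant in this tissue. Of 20 adipocyte markers, 19 had a locus of their own, and each of these was above 5 FPKM in both genotypes. The lipid carrier *Fabp4* was at 7677 FPKM in miR-21+/+ tissue and the lipid droplet coat protein *Plin1* at 392 FPKM.

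Among the adipokines, *Cfd*, which encodes adipsin (complement factor D), was by far the most abundant. Its level was 6946 FPKM in miR-21+/+ and 5547 FPKM in miR-21-/- tissue, which ranked it at place 3 and place 1 among the named loci. *Cfd* alone made up 70.9% of the summed FPKM of the 9 genes in miR-21+/+ and 71.1% in miR-21-/- tissue. *Adipoq* (adiponectin) followed with 1207 and 853 FPKM, and then the resistin genes *Retn*, with 679 and 528 FPKM, and *Retnla*, with 608 and 487 FPKM. These 4 genes kept the same order in both genotypes, although *Retn* exceeded *Retnla* by only 1.12-fold in miR-21+/+ and 1.08-fold in miR-21-/- tissue.

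The lower part of the order was not the same. *Rbp4* stood above *Rarres2* in miR-21+/+ tissue, at 169 against 130 FPKM, and below it in miR-21-/- tissue, at 127 against 159 FPKM. *Lep* was at 27.7 FPKM and *Nampt* at 26.4 FPKM in miR-21+/+ tissue, a difference of 1.05-fold, while in miR-21-/- tissue *Lep* at 67.9 FPKM was 3.04-fold above *Nampt* at 22.3 FPKM. *Agt* was the least abundant in both, with 7.17 and 9.93 FPKM, not far above the minimum of 5 FPKM. The most and the least abundant of the 9 were thus 968-fold apart in miR-21+/+ and 558-fold apart in miR-21-/- tissue.

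**Figure D1:**
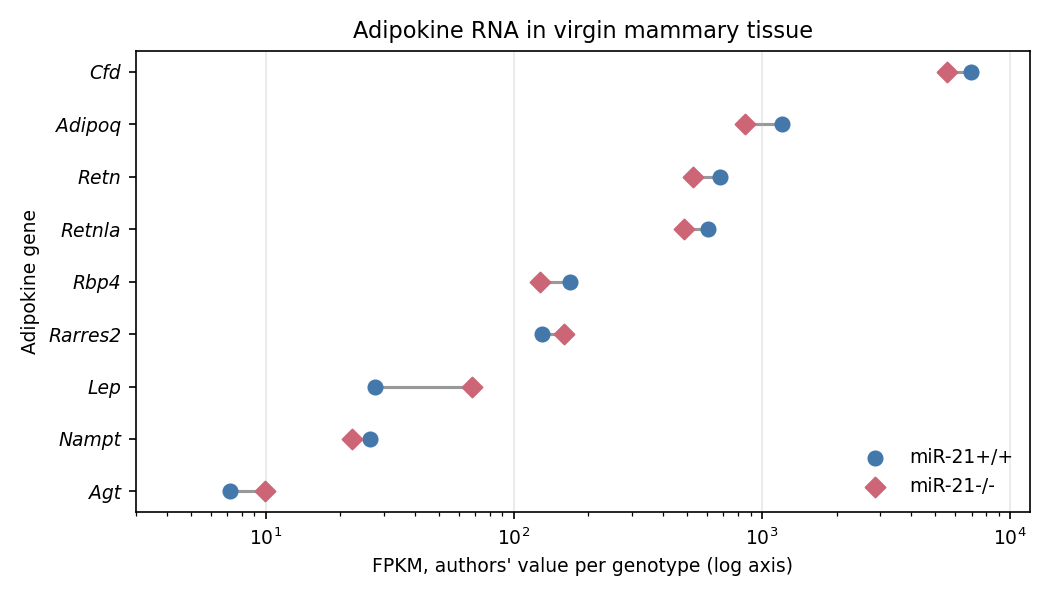
Level of each adipokine gene in miR-21+/+ (circles) and miR-21-/- (diamonds) mammary tissue, in FPKM on a log axis; each point is the authors' single value for a genotype, with no error bar because values per mouse were not used. *Lep* shows the widest gap, from 27.7 to 67.9 FPKM, and *Cfd* sits at the top with 6946 and 5547 FPKM.

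In miR-21-/- tissue 3 adipokines had a higher level and 6 (66.7%) a lower one, where 56.9% of all named loci were lower, with a median log2 ratio of -0.32 against -0.03 over all named loci. At a limit of 1.5-fold, 1 adipokine was higher, where 3.85% of the named loci were, and 0 were lower, where 4.33% were. The gene past the limit was *Lep*. These shares depend on the scaling: with equal sums over all loci 0.5405% were higher and 68.49% lower, and with equal sums over named loci 5.441% and 3.105%. At a lower limit of 0.32 on the log2 scale, 2 were higher, *Lep* and *Agt*, against 8.48% of the loci, and 4 were lower, *Adipoq*, *Rbp4*, *Retn* and *Cfd*, against 11.3%. *Cfd* and *Retnla*, both with log2 ratios of -0.32 after rounding, lay just inside and just outside that last limit.

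**Figure D2:**
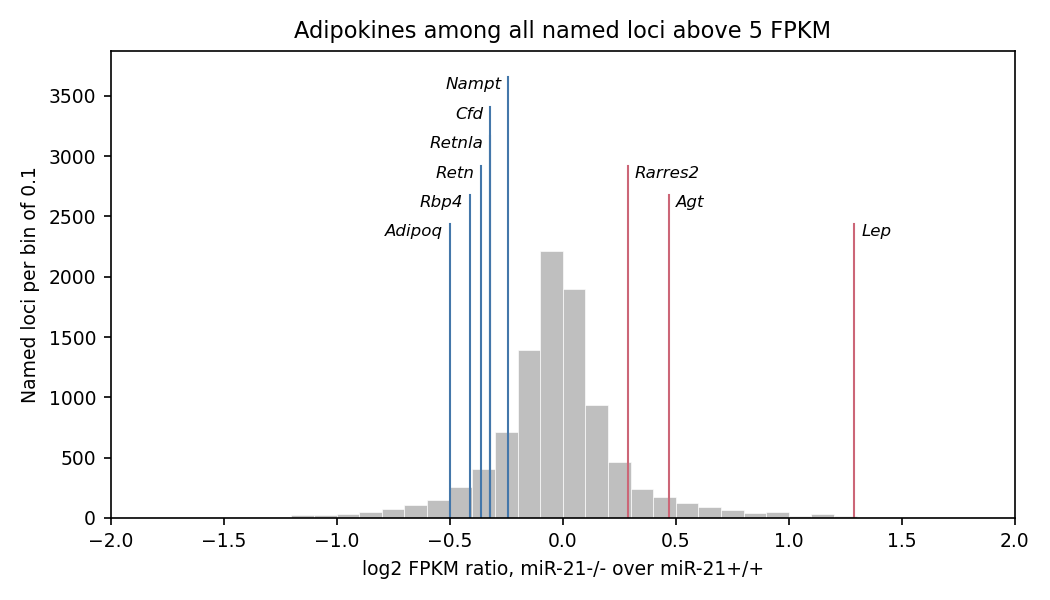
Histogram of the log2 FPKM ratio (miR-21-/- over miR-21+/+) of the named loci above 5 FPKM in at least one genotype, in bins of 0.1, with a labelled vertical line for each adipokine; line heights only separate the labels, and 62 loci beyond 2 in either direction lie outside the axis. Blue lines mark the 6 adipokines that were lower and red lines the 3 that were higher, with *Lep* at 1.29 far in the right tail.

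*Lep* encodes leptin, the hormone that signals the amount of stored fat and restrains appetite. Its level was 2.45-fold higher in miR-21-/- tissue, from 27.7 to 67.9 FPKM, a log2 ratio of 1.29. Only 0.6% of the 9714 named loci had a higher ratio. Of 2340 named loci whose mean level lay within 2-fold of that of *Lep*, 12 (0.513%) were at least as far up, and the standard deviation of the log2 ratio over these loci was 0.36. Its rank by level went from place 2512 in miR-21+/+ to place 823 in miR-21-/- tissue. The gene lies on the plus strand of chromosome 6 (29010220 to 29023877 in mm9, GENCODE annotation) and has 3 exons and a 3′ UTR of 2695 nt, against only 504 nt of coding sequence.

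Ratios of *Lep* to other adipokines within a genotype differed as well. *Adipoq* was 43.6-fold more abundant than *Lep* in miR-21+/+ and 12.6-fold in miR-21-/- tissue, so the *Lep* to *Adipoq* ratio was 3.47-fold higher in the latter, or 1.79 on the log2 scale. Such a ratio is taken inside each library pair and does not depend on how the columns are scaled. *Cfd* exceeded *Lep* by 251-fold in miR-21+/+ and by 81.7-fold in miR-21-/- tissue. Against *Retn* the *Lep* ratio differed by 3.15-fold, and against *Agt*, the adipokine closest to it, by 1.77-fold.

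Values around *Lep* were few. Within 100 kb the table holds 3 other named loci, of which only *Rbm28*, an RNA binding protein of the nucleolus, was above 5 FPKM. It was at 11.5 and 12.4 FPKM, a log2 ratio of 0.10. *Prrt4* was at 0.13 and 0.252 FPKM, a log2 ratio of 0.96 at a very low level, and *Mir129-1* was listed at 0 in both genotypes.

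Promoter sequence is shown for 3 adipokines with different ratios: *Lep*, the highest, *Adipoq*, the lowest, and *Agt*, the next highest after *Lep*. The sequences are RefSeq promoters of build GRCm38.p6, 5′ to 3′ on the gene's own strand and ending at the base before the annotated start. They cover chr6:29060101-29060220 (plus strand) for *Lep*, chr16:23146416-23146535 (plus strand) for *Adipoq* and chr8:124569707-124569886 (minus strand) for *Agt*. Capitals mark the motifs searched. These were the C/EBP palindrome (TTGCGCAA), the PPAR and RXR direct repeat (AGGTCA, 1 free base, AGGTCA), the STAT motif known as GAS (TTCNNNGAA), the core of a TATA box (TATAA) and the CCAAT box (CCAAT).
Lep: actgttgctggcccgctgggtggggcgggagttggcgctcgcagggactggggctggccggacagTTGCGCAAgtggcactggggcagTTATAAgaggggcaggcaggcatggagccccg
Adipoq: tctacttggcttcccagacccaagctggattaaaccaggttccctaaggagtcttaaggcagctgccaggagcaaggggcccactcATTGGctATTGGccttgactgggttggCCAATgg
Agt: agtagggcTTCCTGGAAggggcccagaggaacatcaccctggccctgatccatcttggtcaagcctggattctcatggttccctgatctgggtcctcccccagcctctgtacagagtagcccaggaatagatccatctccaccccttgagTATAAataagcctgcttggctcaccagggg

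Each motif was searched on both strands in the 250 bases before the start, for all 32851 RefSeq promoters and for the 8 adipokines with one. *Rarres2* had none in that set. The C/EBP palindrome, named after a family of adipocyte transcription factors, was found in the *Lep* promoter, at bases -55 to -48 from the start, and in 0.164% of all promoters. No other adipokine promoter held it. The direct repeat was in 0.0335% of all promoters and in none of the 8. The GAS motif, which STAT5 and STAT3 recognise, was in the *Agt* promoter at bases -172 to -164 and in 7.02% of all promoters. *Adipoq* held CCAAT on either strand at 3 places, beginning at bases -34, -27 and -7. That motif was also found in *Rbp4* and in 33.8% of all promoters. The TATA core lay near the start of *Lep*, *Retnla*, *Rbp4* and *Agt*. At any place in the 250 bases, it was in 22.8% of all promoters. In *Lep* it matched both strands at overlapping positions. These matches describe letters in a window, and the table holds no measurement of binding.

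*Adipoq* encodes adiponectin, a hormone made almost only by adipocytes. It was at 1207 FPKM in miR-21+/+ and 853 FPKM in miR-21-/- tissue, 70.7% of the miR-21+/+ value and the lowest of the 9 log2 ratios, at -0.50. Of the named loci, 5.7% had a lower ratio. Among the 546 loci whose mean was above 100 FPKM, a class in which ratios spread more widely, 11.0% did. The gene is on chromosome 16 (23146609 to 23158101 in mm9, plus strand, 3 exons).

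*Rbp4* encodes the protein that carries retinol in the blood. It was at 169 and 127 FPKM, a log2 ratio of -0.41, with 7.9% of the named loci lower still. The gene is on chromosome 19 (38191110 to 38199811, minus strand, 6 exons). Within 100 kb, 3 named loci were above 5 FPKM. They were *O3far1*, which encodes the fatty acid receptor GPR120, at 14.9 and 9.82 FPKM (log2 ratio -0.61), *Myof* at 15 and 12.9 FPKM (-0.22) and *5730455O13Rik* at 7.19 and 7.04 FPKM (-0.03).

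*Retn* (resistin) and *Retnla* (resistin-like alpha) are cysteine-rich secreted proteins of one family. *Retn* comes from adipocytes in the mouse, and *Retnla* is known from fat and from alternatively activated macrophages. Their ratios were close to each other, at -0.36 and -0.32 on the log2 scale, with 9.5% and 11.5% of the named loci below them. *Retn* lies on chromosome 8 (3655770 to 3660110, plus strand), and *Retnla* on chromosome 16 (48842665 to 48844574, plus strand). The coding sequences of this pair shared 50.3% of aligned positions, and their transcripts had no identical run longer than 12 nt.

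The other resistin-like genes, next to *Retnla* on chromosome 16, stood far below it. *Retnlg* was at 6.10 FPKM in miR-21+/+ and 12.1 FPKM in miR-21-/- tissue, a log2 ratio of 0.99, opposite in sign to that of *Retnla*. *Retnlb* was at 0.0348 FPKM in miR-21+/+ and listed at 0 in miR-21-/- tissue. *Retnla* and *Retnlg* coding sequences were identical at 71.5% of aligned positions, with a shared run of 49 nt, so reads inside that run cannot be assigned to one of them and the low *Retnlg* values are uncertain.

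*Cfd* encodes adipsin, the serine protease that cleaves factor B in the alternative complement pathway. It was at 6946 and 5547 FPKM, 79.8% of the miR-21+/+ value, with a log2 ratio of -0.32. Only 3 other named loci had a mean level within 2-fold of it, and each of them had a lower ratio. The gene is on chromosome 10 (79353598 to 79355401, plus strand, 5 exons). Within 100 kb of it, 9 named loci above 5 FPKM had a median log2 ratio of 0.21, from -0.09 to 2.27. The highest was *Prtn3*, a neutrophil protease gene, at 2.05 and 9.89 FPKM, which passed the minimum only through miR-21-/- tissue. The nearby *Elane* (neutrophil elastase) was under the minimum at 1.52 and 1.42 FPKM.

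*Nampt* encodes an enzyme of NAD salvage that is also released by cells under the name visfatin. Its level was 26.4 FPKM in miR-21+/+ and 22.3 FPKM in miR-21-/- tissue, a log2 ratio of -0.24, the closest to 0 of the 9. Of 4223 named loci at a like level, 13.4% were at least as low. It lies on chromosome 12 (33505200 to 33538234, plus strand, 11 exons).

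*Rarres2* encodes chemerin, which attracts immune cells and acts on adipocytes. It was at 130 FPKM in miR-21+/+ and 159 FPKM in miR-21-/- tissue, a log2 ratio of 0.29, with 9.7% of the named loci higher still. On chromosome 6 (48519697 to 48522669, minus strand) it overlaps the 3′ end of *Lrrc61*, which is read from the plus strand. Of its 708 exon bases, 323 (45.6%) lie inside *Lrrc61* exons, and without strand information reads there cannot be assigned to one gene. The table gives *Lrrc61* 6.40 and 5.80 FPKM under the same locus coordinates.

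*Agt* encodes angiotensinogen, the precursor of angiotensin, made mainly by liver and also by fat. It was at 7.17 FPKM in miR-21+/+ and 9.93 FPKM in miR-21-/- tissue, a log2 ratio of 0.47. Of the named loci 5.5% had a higher ratio, and at a like level 322 of 5565 loci (5.79%) were as high or higher. The gene is on chromosome 8 (127080434 to 127093606, minus strand, 5 exons).

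As the mice lacked miR-21, the 3′ UTRs of the 9 genes were searched for matches to its seed. The mature microRNA (mmu-miR-21a-5p, 22 nt, RefSeq) is given with its seed, bases 2 to 8, in capitals.
miR-21: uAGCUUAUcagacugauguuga
Reading 1 transcript per gene, the one with the longest annotated 3′ UTR, no 8mer, 7mer-m8 (ATAAGCT) or 7mer-A1 (TAAGCTA) site was found, *Lep* included. Over 19915 genes with an annotated 3′ UTR, 6.10% had a 7mer-m8 and 5.66% a 7mer-A1 site. The only 6mer match (TAAGCT), a weak type of site that 20.8% of the genes had, was in *Retn*.
Retn: ggggcaggtcTAAGCTgagggtctgg
This window, with the match in capitals, is chr8:3657447-3657472 (mm9, plus strand). It is 3′ UTR in the transcript Retn-201 but lies in intron 4 of Retn-001, which has 5 exons. *Retn* was lower in miR-21-/- tissue, with a log2 ratio of -0.36.

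The tissue also expressed receptors for several of these proteins. Of 15 receptors and binding partners, 7 were above 5 FPKM in at least one genotype, and none of these differed by 1.5-fold. Over all named loci, 3.85% were at least that much higher and 4.33% at least that much lower. *Adipor2*, an adiponectin receptor, was at 202 and 148 FPKM, a log2 ratio of -0.45, and *Adipor1* at 65.8 and 57.5 FPKM, a ratio of -0.19. The third adiponectin binding protein, T-cadherin (*Cdh13*), was at 13.0 and 16.2 FPKM. *Cmklr1*, the signalling receptor of chemerin, was higher together with its ligand, at 41.0 and 56.4 FPKM, a log2 ratio of 0.46. The resistin binding proteins *Cap1* and *Tlr4* were at 67.3 and 76.7 FPKM and at 7.04 and 8.34 FPKM. *Agtr1a*, the angiotensin receptor, was at 15.2 and 15.6 FPKM.

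The other 8 partners did not reach the minimum of 5 FPKM. *Lepr*, the leptin receptor, was at 2.17 and 1.74 FPKM, so the higher *Lep* level was not accompanied by a higher receptor level. *Stra6*, the receptor of RBP4, was at 4.98 and 3.97 FPKM, and the chemerin receptors *Gpr1* and *Ccrl2* at 2.66 and 2.16 FPKM and at 2.03 and 2.73 FPKM. *Agtr2* was at 2.87 and 1.36 FPKM. *Agtr1b*, *Mas1* and *Ttr* were under 0.3 FPKM. Over the 7 expressed partners the median log2 ratio was 0.19, and with all partners above 0 FPKM it was -0.19, so the list as a whole gave no stable direction.

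Genes that act downstream of leptin and adiponectin were read next. Of 16, 14 were above the minimum, with a median of -0.02, 3 at least 1.5-fold higher and 1 at least 1.5-fold lower. Of all named loci, 3.85% were higher and 4.33% lower by that much. The 3 higher were *Socs3*, a feedback inhibitor that leptin signalling is known to induce (4.94 and 8.49 FPKM, log2 ratio 0.78), *Stat3* (36.6 and 57.3 FPKM, 0.64) and the insulin receptor substrate *Irs1* (16.2 and 24.9 FPKM, 0.61). *Ppara*, a nuclear receptor of fatty acid oxidation, was the lower one, at 7.73 and 3.58 FPKM (-1.11). *Socs3* was under the minimum in miR-21+/+ tissue and *Ppara* in miR-21-/- tissue, so each was counted only through its higher genotype. The part of leptin in these levels was not tested.

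Of 8 alternative complement pathway genes summarised as partners of adipsin, 5 were lower and 3 higher, where 56.9% of all named loci were lower, with a median of -0.20. *C3*, the central component, was the lowest at 507 and 306 FPKM, a log2 ratio of -0.73. Factor B could not be read alone because the table merges *Cfb* with *C2*.

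Around *Agt*, 9 genes of the renin-angiotensin axis had a median log2 ratio of 0.01. Renin was near the floor of the table, at 0.516 and 1.01 FPKM in a locus that merges *Ren1* and *Ren2*. The converting enzyme *Ace* was at 28.0 and 29.5 FPKM. The largest difference was that of *Enpep*, an aminopeptidase that removes the first residue of angiotensin, at 40.3 and 21.3 FPKM, a log2 ratio of -0.92.

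For *Nampt*, 9 genes of NAD synthesis and use gave a median of -0.19. Of these, 8 were lower and 1 higher, where 56.9% of all named loci were lower. *Nnmt*, which methylates nicotinamide and is abundant in fat, was at 68.0 and 43.3 FPKM, a log2 ratio of -0.65. The enzymes that act after *Nampt*, *Nmnat1* and *Nmnat3*, were at 6.88 and 5.50 FPKM and at 7.09 and 5.39 FPKM. Around *Rbp4*, 8 retinoid genes had a median of 0.07. Their extremes were the cellular binding proteins *Crabp2*, at 2.98 and 6.21 FPKM, and *Crabp1*, at 7.11 and 4.82 FPKM. Each was under the minimum of 5 FPKM in the genotype where it was lower.

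The adipokines were then read beside general adipocyte genes, because fat cells are one source of adipokines, though not the only one. Of the 19 adipocyte markers, 16 were lower and 3 higher in miR-21-/- tissue, where 56.9% of all named loci were lower. Their median log2 ratio was -0.38, and their summed level was 16289 FPKM in miR-21+/+ and 12133 FPKM in miR-21-/- tissue. None was at 0. *Fabp4* had a ratio of -0.48, *Lpl*, a secreted lipase, -0.60 and the fatty acid activating enzyme *Acsl1* -0.82, the lowest of the list. *Plin1* hardly differed, at 392 and 374 FPKM (-0.07), and the droplet protein *Plin4* had 0.62. Without 6 markers that are secreted or also high in brown fat, the median was -0.21.

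Of the adipokines, 6 lay close to the median of -0.38 over all 19 markers. *Cfd*, *Retnla*, *Retn*, *Rbp4*, *Adipoq* and *Nampt* had log2 ratios between 0.12 below and 0.13 above the adipocyte median. *Lep* did not: its ratio was 1.67 above that median, and all 19 markers had a lower ratio than *Lep*. *Agt* and *Rarres2* were 0.84 and 0.66 above the median, each with 18 of the 19 markers below it. The closeness of the 6 depends on the marker list. All 6 were below the median of -0.21 over fewer markers, from *Nampt* at -0.24 to *Adipoq* at -0.50. The part of adipocyte content in the adipokine values was not tested.

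Markers of other cell types differed between the genotypes as well. Of 13 mammary epithelial markers, 11 were higher, where 43.1% of all named loci were. Their median was 0.50 and their summed level 795 against 1055 FPKM. All 10 skeletal muscle markers were higher, with a median of 0.82 and sums of 1349 and 2247 FPKM. Of them *Mb*, at 2.07 and 7.54 FPKM, passed the minimum only through miR-21-/- tissue. In the other direction, all 6 B and T cell markers above the minimum were lower, where 56.9% of all named loci were. Their median was -2.33, with sums of 60.8 and 17.9 FPKM. Of these 6, only *Ptprc*, at 21.6 and 10.5 FPKM, was above the minimum in both genotypes. The others passed it only through miR-21+/+ tissue, where they were higher, so the filter favours this direction. Macrophage markers, relevant to *Retnla*, had a median of -0.04 over 9 genes, with sums of 625 and 574 FPKM. No marker of these lists was at 0. The part of these other cells was not tested either.

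Brown adipocyte genes were low in miR-21-/- tissue. Of 12 markers only 5 were above the minimum with a locus of their own. All 5 were lower in miR-21-/- tissue, where 56.9% of all named loci were. Their median was -0.80, with sums of 250 and 127 FPKM. *Ucp1*, the uncoupling protein that makes heat in brown fat, was at 43.3 and 8.48 FPKM, a log2 ratio of -2.35. *Cidea* was at 52.3 and 19.7 FPKM. The part of brown adipocytes in the adipokine values was not tested.

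**Figure D3:**
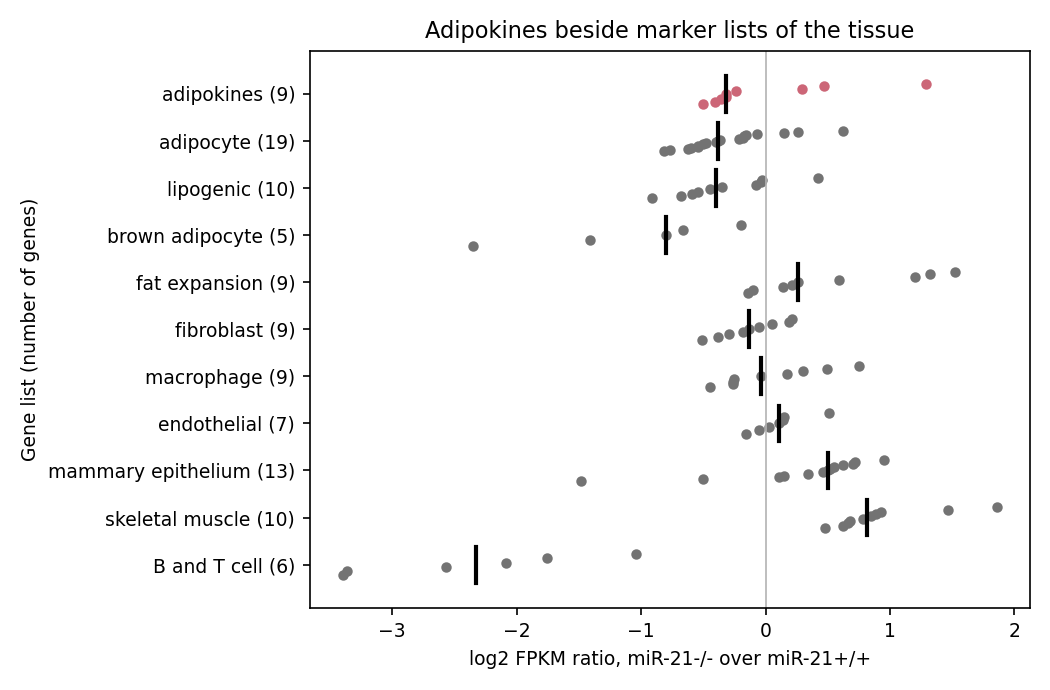
Log2 FPKM ratio (miR-21-/- over miR-21+/+) of each gene in the adipokine set and in 10 other gene lists, 1 point per gene, with a black bar at each list's median and the number of genes in parentheses. The adipokine median of -0.32 lies near the median of -0.38 over 19 adipocyte markers, while *Lep* is the isolated point at 1.29. The lists, the one labelled fat expansion included, were chosen with earlier results of these data known.

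A short list of genes known to vary with fat tissue expansion and fat cell size, written with earlier results of these data known, held *Mest*, *Npr3*, *Nnat* and *Sncg* among 9 expressed members. Those 4 were higher by at least 1.5-fold, and 0 of the 9 were lower by that much. Since the choice of members could follow from those earlier results, this count cannot serve as a test against the share of all loci. Over all named loci, 3.85% were higher and 4.33% lower by that much. *Npr3*, the clearance receptor of natriuretic peptides, was at 9.49 and 27.2 FPKM, a log2 ratio of 1.52. *Nnat* (neuronatin) was at 199 and 496 FPKM (1.32), *Mest* at 9.21 and 21.1 FPKM (1.20) and *Sncg* (gamma-synuclein, abundant in fat cells) at 217 and 326 FPKM (0.59). Others on the list were near 0, such as the preadipocyte factor *Zfp423* at 6.09 and 6.72 FPKM (0.14), and the median of the list was 0.26.

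The scaling of the columns sets the zero point of every ratio. Over all loci, the miR-21+/+ column added up to 759295 FPKM and the miR-21-/- column to 1175603 FPKM. Over named loci alone these totals were 380567 and 355385 FPKM, so the higher total in miR-21-/- tissue lay in rows without a gene name. Scaling to equal sums over all loci moves every log2 ratio by -0.63, which takes the median of the named loci to -0.67. Under it *Lep* was still higher, at 0.66, but *Agt* and *Rarres2* were lower, at -0.16 and -0.34. Since every ratio shifts alike, the distance of *Agt* and *Rarres2* from the median of the named loci cannot change under this scaling.

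**Figure D4:**
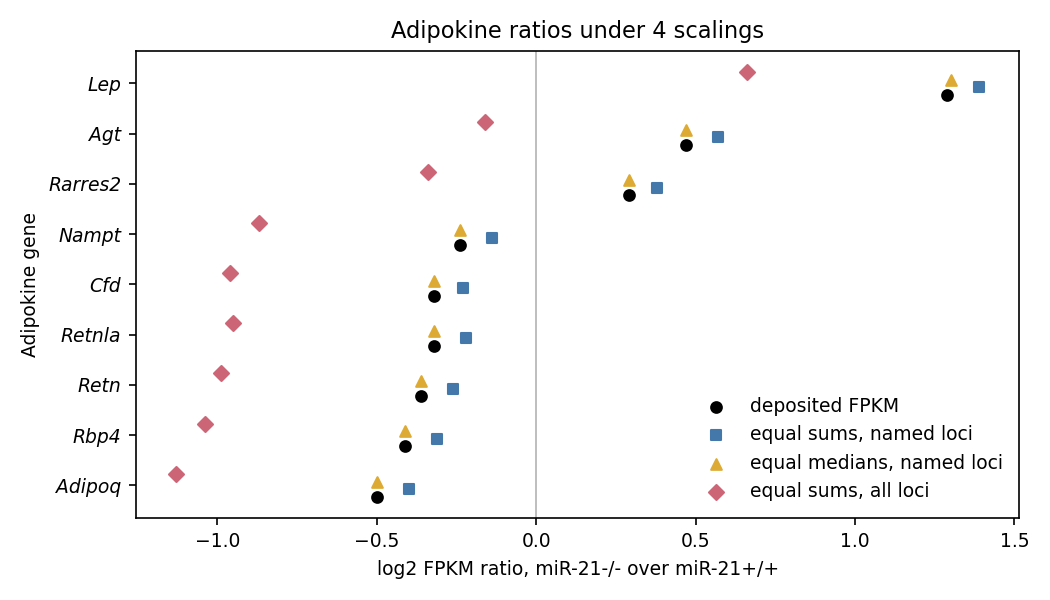
Log2 FPKM ratio (miR-21-/- over miR-21+/+) of each adipokine with the deposited FPKM and after 3 other scalings of the columns, which shift all genes by the same amount. With equal sums over all loci *Lep* is the only adipokine above 0, at 0.66, and *Agt* and *Rarres2* cross to -0.16 and -0.34.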

How the data were processed

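Poly(A) RNA of mammary tissue was sequenced from one end on a HiSeq instrument, with 4 mice in all. Alignment by the authors used TopHat and the mm9 genome, and they deposited Cuffdiff FPKM values, 1 per genotype, which combine 2 mice. The submitters' processing notes also name CASAVA. Program versions and gene annotation are not given in the sources used here, and the depth of the libraries is unknown. The authors' fold changes, test statistics, p-values, q-values and calls in the table were not used.

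Members and lists were chosen with earlier results of these data known. Log2 ratios were plain ratios of the deposited FPKM values, and no test was run. The background was the 9714 named loci above 5 FPKM in at least one genotype. A merged locus was left out of list summaries. Named genes were the members, their receptors and partners, and up to 3 extremes per list in each direction. *Fabp4*, *Plin1*, *Zfp423*, *Scd1*, *Apln* and the neighbours of *Lep*, *Rbp4* and *Cfd* fall outside this rule and were chosen after their values were seen. Alternatives were pseudocounts of 1 and 0.1, 3 scalings, other FPKM minimums and fold limits, summed rows and fewer adipocyte markers. Locus starts in the table count from 0, since 7387 annotated starts matched after adding 1 and 424 as printed. GENCODE vM1 gave mm9 gene structures. The ratio step was tested on simulated data. Calculations used Python 3.11.15, numpy 2.4.6, pandas 2.3.3, Biopython 1.88 and matplotlib 3.10.9.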

Additional observations from a re-analysis of the deposited data

Results flagged for a closer look

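A signal appeared in rows without a gene name, which the comparison of named genes does not use. On chromosome 6, from 28982166 to 28989406 (mm9), 20.8 kb before the *Lep* locus, the table holds 4 such rows, and these are the only unnamed rows within 100 kb of *Lep*. Their levels ranged from 0.414 to 0.818 FPKM in miR-21+/+ and from 0.549 to 1.63 FPKM in miR-21-/- tissue. All 4 were higher in miR-21-/- tissue, with log2 ratios of 1.00, 1.18, 0.41 and 1.46. Summed, they were at 2.37 and 5.05 FPKM, a log2 ratio of 1.09, beside 1.29 for *Lep*. Rows without a gene name also added up to more in miR-21-/- tissue over the genome as a whole. Totals over all loci were 759295 and 1175603 FPKM, against 380567 and 355385 FPKM over named loci. A higher value in unnamed rows is thus not particular to this place. The values are low, the 4 rows before *Lep* share 1 locus and may share reads, and the difference was not tested.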

How the results depend on the processing

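No paired analysis was possible because only 1 value per genotype was at hand, and leaving out each mouse in turn was not run for the same reason. Over 110 alternative values, 85 kept their direction and moved by under 0.1 on the log2 scale, or within 1.5 times for a count or share. With equal sums over all loci, log2 ratios were -1.13 for *Adipoq*, 0.66 for *Lep*, -0.99 for *Retn*, -0.95 for *Retnla*, -0.96 for *Cfd*, -1.04 for *Rbp4* and -0.87 for *Nampt*, and reversed to -0.34 for *Rarres2* and -0.16 for *Agt*. Then 6 adipokines were lower by 1.5-fold, the adipocyte median was -1.01, the receptor median -0.44, and 0.5405% of loci were higher and 68.49% lower by 1.5-fold. These moves follow from the shift of -0.63 that this scaling gives every locus. At a limit of 0.32 on the log2 scale, 2 adipokines were higher and 4 lower, with 8.483% and 11.31% of loci. At 2-fold these shares were 1.246% and 1.482%. At 1.5-fold with no FPKM minimum they were 9.652% and 10.57%. The receptor median was -0.19 with no minimum and -0.08 with a mean above 1 FPKM, both reversed, and fewer markers gave an adipocyte median of -0.21. The unknown depth limits what low values such as those of *Agt* and *Lepr* can show.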

Other observations

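A list of 40 other genes was written for secreted products of fat tissue, but not every member is a released protein, such as the receptor *Npr3*. Of the 40, 26 were above 5 FPKM in at least one genotype with a locus of their own. Of these 13 were higher and 13 lower in miR-21-/- tissue, where 56.9% of all named loci were lower. Their median log2 ratio was -0.01. The highest were the chemokine *Ccl2*, at 1.81 and 5.54 FPKM (log2 ratio 1.61), and the receptor *Npr3* at 1.52. *Ccl2* passed the minimum only through miR-21-/- tissue, where it was higher, so the filter favours its place. Among the lower ones were *Dpp4*, at 20.1 and 13.3 FPKM (-0.60), and *Lpl* (-0.60). *Apln*, which encodes apelin, stayed under the minimum at 1.92 and 4.63 FPKM.

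Genes of fatty acid and triglyceride synthesis were lower beside the adipokines. Of 10, 9 were lower, where 56.9% of all named loci were, and the median of the list was -0.40. *Elovl6*, which elongates fatty acids, was the lowest at 70.8 and 37.8 FPKM (log2 ratio -0.91). The desaturase *Scd1* was at 4857 and 3332 FPKM (-0.54), while *Gpam*, the first step of glycerolipid synthesis, was at 58.3 and 77.9 FPKM (0.42). Stromal lists differed less, with medians of -0.13 over 9 fibroblast and preadipocyte genes and 0.11 over 7 endothelial genes. No test was run on these values.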
